A study of Mus musculus with 38 samples.

Results

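The genes described here are 10 genes of fat cells, Adipoq, Car3, Fabp4, Cidea, Retn, Lpl, Cfd, Plin1, Scd1 and Dgat2, in whole testes of prepubertal mice. They were chosen by their measured levels in these same arrays, in which some had varied from array to array as fat carried over with the testis would and others with strain and age, so those levels are given as a description. A probe set was taken when the array's annotation gave 1 of these symbols as its only gene. 8 of the 10 genes had a probe set, 17 probe sets in all, among 18019 measured genes. Cfd and Plin1 had none in that annotation and are not analysed here. Where a gene had several probe sets, the one with the highest mean over all arrays stands for it and the others are given beside it.

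The series holds 38 Affymetrix arrays, each made from the testes of prepubertal males, and asked how the X chromosome of the MSM strain alters the onset of spermatogenesis on the C57BL/6J (B6) background. At 7 days postpartum (dpp) the groups were MSM, B6-ChrXMSM, B6-ChrXTMSM and B6 with 3 arrays each and (B6-ChrXTMSM x B6-Chr1MSM)F1, written F1 below, with 8 arrays. At 5 dpp the groups were MSM, B6-ChrXMSM, B6-ChrXTMSM, XS39-tel, F1 and B6 with 3 arrays each. MSM is an inbred strain derived from Mus musculus molossinus. B6-ChrXMSM carries the whole MSM X chromosome on B6, B6-ChrXTMSM its distal part, XS39-tel a shorter and more distal stretch, and the F1 males the distal part of the MSM X chromosome together with 1 MSM copy of chromosome 1. None of the 8 measured genes lies on chromosome X or 1, so the substitution strains carry B6 alleles of all of them, and only MSM arrays could hold mismatches under their probes, which was not tested. The sources used here do not say how fat or the tunica was removed from the testis. The replicates are described as biological, so the spread between them covers differences between males and dissections.

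White fat cells store triglyceride in a large lipid droplet and release hormones. They take up fatty acids that lipoprotein lipase frees from circulating lipoproteins, carry them on binding proteins, and esterify them in a last step made by diacylglycerol acyltransferases. In males a fat pad lies against the epididymis and the testis, while within the prepubertal testis the Sertoli cells, germ cells, Leydig cells, peritubular cells, vessels and macrophages make up the organ. Of the measured genes, Adipoq (adiponectin) and Retn (resistin) are secreted hormones of fat cells. Fabp4 is the fatty acid-binding protein of fat cells and is also made by macrophages and capillary endothelium. Car3 (carbonic anhydrase 3) is abundant in fat cells and skeletal muscle. Scd1 introduces a double bond into saturated fatty acids, Lpl is lipoprotein lipase, Dgat2 makes triglyceride from diacylglycerol, and Cidea is a lipid droplet protein best known in brown fat.

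The promoters of the hormone genes are shown because their transcripts mark the fat cell, and because the pair moved together over the arrays as described next. They come from the RefSeq table of mouse promoters on build GRCm38.p6, which held 2 of the 8 measured genes. Each runs 250 bases upstream to 50 bases downstream of the start of the gene, and capitals mark the CCAAT box in either orientation.
Adipoq, chr16:23146286-23146585, plus strand: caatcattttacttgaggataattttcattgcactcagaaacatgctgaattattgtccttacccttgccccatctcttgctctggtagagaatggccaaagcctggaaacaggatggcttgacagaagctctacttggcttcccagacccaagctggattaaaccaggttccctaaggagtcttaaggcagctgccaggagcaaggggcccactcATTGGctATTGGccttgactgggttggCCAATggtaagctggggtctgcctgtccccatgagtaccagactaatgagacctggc
Retn, chr8:3655520-3655819, plus strand: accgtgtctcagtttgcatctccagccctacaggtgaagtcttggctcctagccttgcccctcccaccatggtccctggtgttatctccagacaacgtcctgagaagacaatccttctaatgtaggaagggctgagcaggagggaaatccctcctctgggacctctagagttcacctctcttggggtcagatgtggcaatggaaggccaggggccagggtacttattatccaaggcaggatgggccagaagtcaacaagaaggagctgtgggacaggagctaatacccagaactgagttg
The motifs searched on both strands were TATAAA (the TATA box), AGGTCA (a nuclear receptor half-site), TTNNGNAAT (a C/EBP site), GGGCGG (a GC box) and CCAAT. Of 32585 mouse promoters of the same length, 13.7% held TATAAA, 16.2% AGGTCA, 11.4% TTNNGNAAT, 35.9% GGGCGG and 37.6% CCAAT. The Adipoq window held 3 copies of CCAAT, 2 of them on the minus strand, and none of the other motifs. The Retn window held none of the 5. A match is a description of the letters and not of a bound site.

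All values below are log2 signals as deposited, where a step of 1 is a doubling. A signal of 10, which is 3.32 on this scale, was the minimum that a group mean had to pass for a gene to be tested. The array medians lay between 2.63 and 2.71, so the arrays were on a common scale, and no 2 arrays held the same values (highest Pearson r 0.997).

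Adipoq, Car3 and Fabp4 differed between arrays of the same strain and age by several log2 units. Their lowest values lay below the minimum signal, so only bounds on the range can be given. Set against that minimum, the highest of the 38 arrays held at least 14.6-fold more Adipoq, 150.8-fold more Car3 and 55.9-fold more Fabp4. Adipoq passed a signal of 10 in 13 arrays, and Car3 and Fabp4 in 26 arrays each. At 7 dpp Adipoq measured 2.48, 5.07 and 1.06 in MSM, 4.23, 1.16 and 1.17 in B6-ChrXMSM, 3.58, 2.65 and 1.22 in B6-ChrXTMSM, and 1.37, 1.10 and 0.59 in B6. The 8 F1 arrays at 7 dpp had a lowest Adipoq value of 0.96, a median of 1.94 and a highest of 4.77. The 3 B6 arrays were all low, and each of the other groups at 7 dpp held at least 1 array above all of them together with an array inside the B6 range. At 5 dpp Adipoq measured 1.95, 7.19 and 5.07 in MSM, 1.05, 4.14 and 5.32 in B6-ChrXMSM, 1.16, 0.98 and 4.98 in B6-ChrXTMSM, 5.62, 1.04 and 0.88 in XS39-tel, 2.01, 0.64 and 2.09 in F1, and 7.13, 6.27 and 1.75 in B6. Here B6 was among the highest groups, and the ranges of all 6 groups overlapped. The lowest array of all 11 groups was below the minimum signal, and the highest array was above it in 9 of them, the exceptions being B6 at 7 dpp and F1 at 5 dpp. In bulk tissue, fewer fat cells and less RNA per fat cell cannot be told apart.

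Car3 and Fabp4 followed the same arrays. At 7 dpp Car3 measured 5.43, 7.72 and 4.02 in MSM, 8.02, 4.41 and 2.51 in B6-ChrXMSM, 7.25, 5.72 and 3.995 in B6-ChrXTMSM, and 0.63, 2.18 and 1.22 in B6, with a lowest value of 0.69, a median of 5.27 and a highest of 8.29 in F1. The MSM, B6-ChrXMSM and B6-ChrXTMSM arrays all lay above the 3 B6 arrays, and the F1 arrays overlapped them. At 5 dpp Car3 measured 4.86, 9.60 and 7.75 in MSM, 1.64, 7.93 and 9.12 in B6-ChrXMSM, 2.60, 1.79 and 8.78 in B6-ChrXTMSM, 9.39, 3.05 and 1.58 in XS39-tel, 5.596, 1.16 and 5.93 in F1, and 10.56, 9.72 and 4.68 in B6. The second MSM and the first XS39-tel arrays, and the first B6 array, carried the most Car3 of their groups, as they did for Adipoq. Fabp4 at 7 dpp measured 4.999, 7.27 and 4.11 in MSM, 6.38, 3.14 and 2.97 in B6-ChrXMSM, 5.64, 4.14 and 3.33 in B6-ChrXTMSM, and 1.69, 1.89 and 1.39 in B6, with a lowest value of 1.43, a median of 4.11 and a highest of 6.46 in F1. At 5 dpp it measured 4.497, 9.13 and 6.93 in MSM, 2.40, 6.14 and 7.44 in B6-ChrXMSM, 2.33, 2.53 and 7.11 in B6-ChrXTMSM, 7.504, 3.43 and 2.31 in XS39-tel, 4.15, 3.002 and 5.07 in F1, and 8.80, 7.85 and 3.61 in B6. The array with the most Adipoq in its group held more Fabp4 than the array with the least in 11 of 11 groups, by a median of 4.58 log2 units. For Car3 the same held in 10 of 11 groups, by a median of 4.77, and B6 at 7 dpp, where all 3 arrays were low, was the exception.

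**Figure D1:**
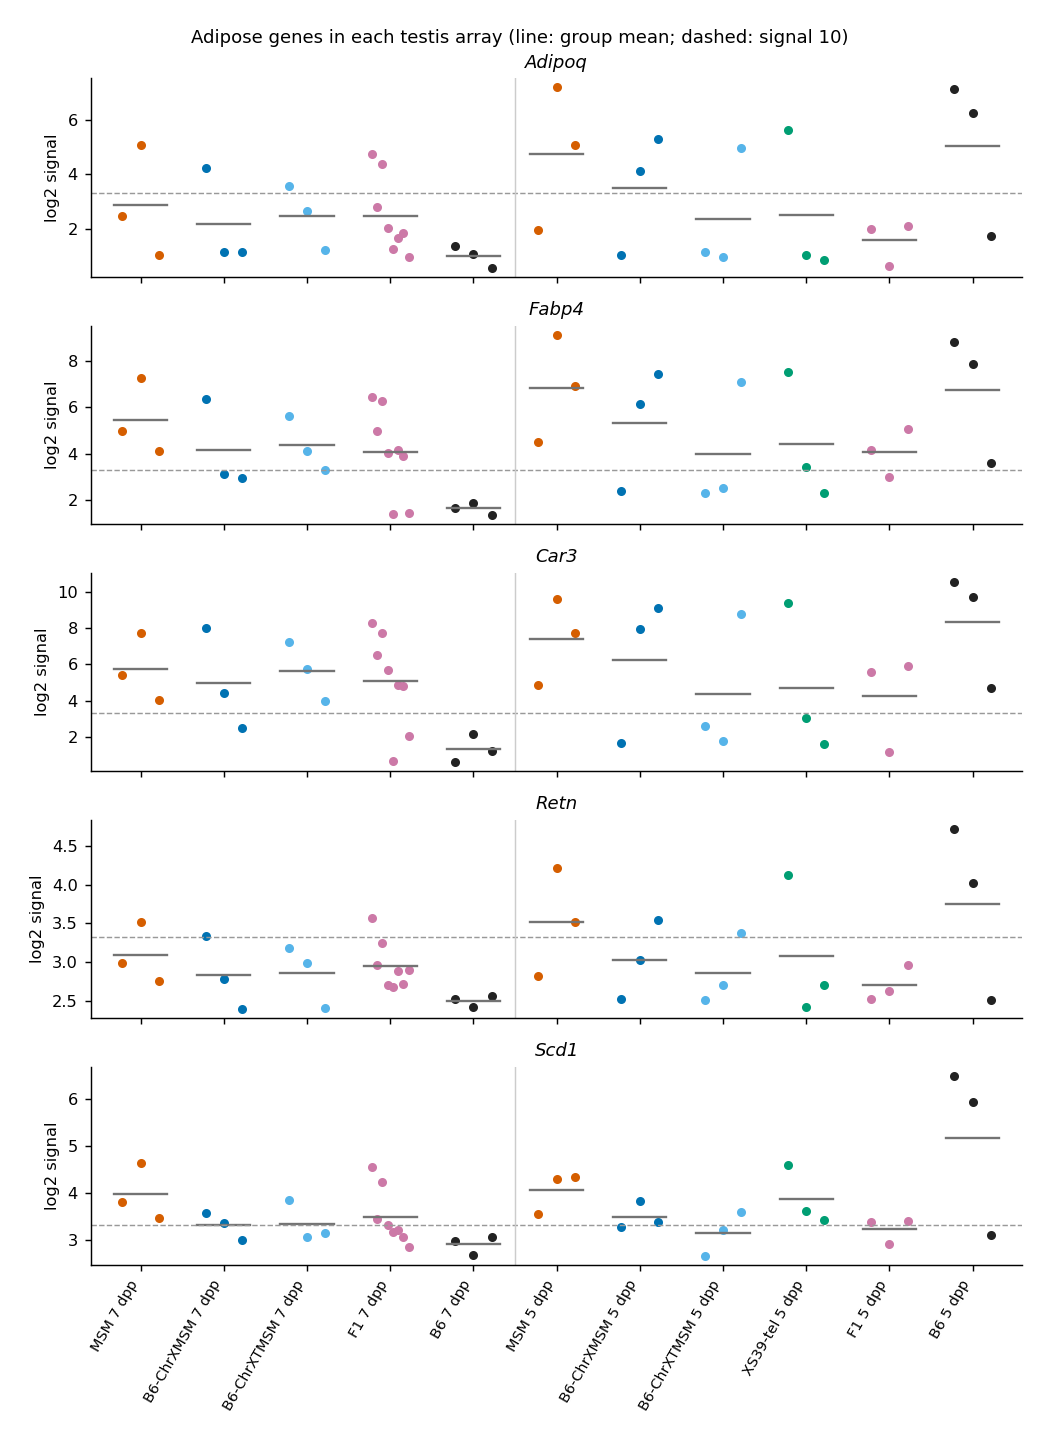
Log2 signal of Adipoq, Car3, Fabp4, Retn and Scd1 (y axes) in each of the 38 arrays (points), by strain and age (x axis), with a bar at each group mean. The B6 arrays at 7 dpp sit together at the bottom of the Adipoq, Car3 and Fabp4 panels, while most other groups spread over several log2 units, and the first and second B6 arrays at 5 dpp are among the highest in every panel.

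Retn and Scd1 showed the same arrays as high over a narrower range, with at least 2.64-fold more Retn and 8.97-fold more Scd1 in the highest array than the minimum signal. Retn passed a signal of 10 in 10 arrays and Scd1 in 22. The highest Retn values were 4.72 and 4.02 in the first and second B6 arrays at 5 dpp, 4.22 in the second MSM array at 5 dpp and 4.12 in the first XS39-tel array. The third B6 array at 5 dpp had 2.51, within the 2.41 to 2.56 of the 3 B6 arrays at 7 dpp. Scd1 measured 6.49 and 5.93 in the first and second B6 arrays at 5 dpp, against 3.10 in the third. No other array passed 4.64, the value of the second MSM array at 7 dpp. Retn and Scd1 were each higher at the array with the most Adipoq than at the array with the least in 10 of 11 groups, by a median of 0.77 log2 units for Retn and 0.70 for Scd1.

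Likeness between genes was measured on each array's distance from its group mean, so that differences between strains and ages drop out. The 38 points share strains and a common normalisation, and the coefficients are descriptions. Fabp4 followed Adipoq with r = 0.97 (Spearman's rho 0.96), Retn with r = 0.93 (rho 0.91), Car3 with r = 0.93 (rho 0.94) and Scd1 with r = 0.81 (rho 0.86). These 4 values stayed between 0.82 and 0.96 when the 2 arrays farthest from the median of Adipoq were left out. They were 0.93, 0.90, 0.88 and 0.88 over the 7 dpp arrays alone and 0.99, 0.95, 0.95 and 0.78 over the 5 dpp arrays alone. Car3 and Fabp4 had r = 0.97 with each other. For 1 log2 unit of Adipoq, Car3 moved by 1.39, Fabp4 by 1.03, Scd1 by 0.29 and Retn by 0.27, scales that also depend on each probe set's response near its background. The further probe sets of Car3 had r = 0.93, 0.75 and 0.99 with Adipoq and those of Fabp4 0.94, 0.81 and 0.78, although the Fabp4 probe sets with 0.81 and 0.78 were below a signal of 10 in all arrays. The second probe set of Scd1, also below 10 in all arrays, had r = 0.29.

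Dgat2 and Cidea stood apart from that set, and Lpl followed it with a small slope. Lpl had r = 0.70 with Adipoq around the group means but moved by only 0.05 log2 units for 1 unit of Adipoq, and over the levels themselves r was 0.34. The Lpl coefficient was 0.45 at 7 dpp and 0.83 at 5 dpp. Dgat2 had r = 0.27 (rho 0.22, and 0.09 over the levels). Cidea had r = -0.22 (rho -0.21), 0.25 at 7 dpp and -0.40 at 5 dpp. Cidea was higher at the array with the most Adipoq in 2 of 11 groups, Dgat2 in 6 and Lpl in 9, by medians of -0.11, 0.08 and 0.14 log2 units. Adipoq, Car3, Fabp4, Retn and Scd1 thus shared an array pattern. Dgat2 and Cidea were only weakly related to it, and Lpl shared it over a small part of its level. The members were chosen from these same arrays, so the pattern is no test of the name of adipose genes.

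**Figure D2:**
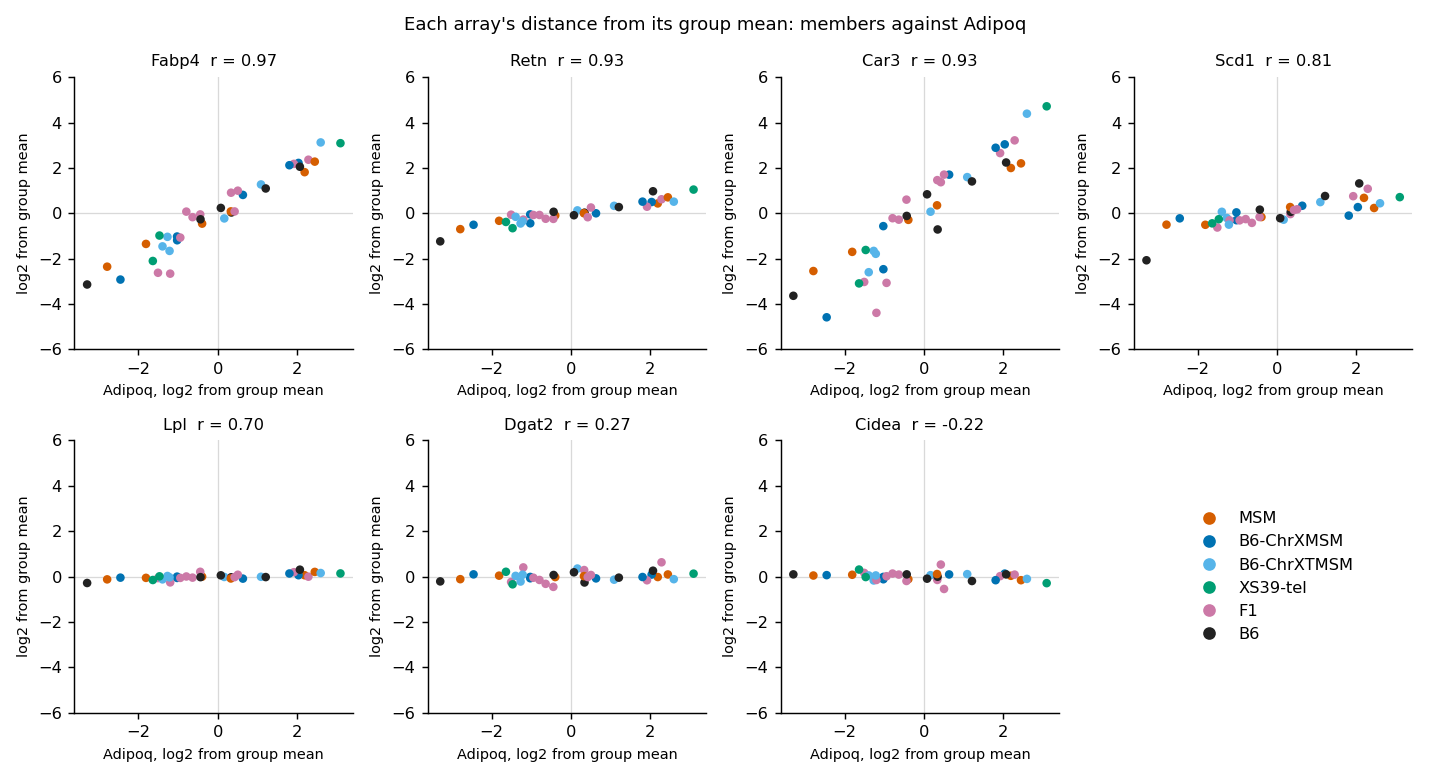
Distance of each array from its group mean in log2 units, for Adipoq (x axis) and the other 7 measured genes (y axes, on 1 common scale), with arrays coloured by strain. The points of Fabp4 and Car3 rise steeply along Adipoq (r = 0.97 and 0.93), those of Retn and Scd1 rise with a low slope, and those of Lpl, Dgat2 and Cidea stay near 0 over the whole Adipoq range.

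Few other genes resembled Adipoq. Among 10828 other genes with a group mean above the minimum signal, the median coefficient with Adipoq around the group means was -0.08, 105 genes reached 0.5 and 5 reached 0.7. The 8 nearest were Cd36 (0.87), Cav1 (0.75), Aqp1 (0.72), Cavin2 (0.71), Nnmt (0.71), Mrc1 (0.68), Gpihbp1 (0.68) and Ctsc (0.68). Cd36 is a fatty acid translocase of fat cells, capillaries and macrophages, Cav1 and Cavin2 build caveolae, Aqp1 is a water channel of capillaries, Mrc1 is a mannose receptor of macrophages, and Gpihbp1 holds lipoprotein lipase on the capillary wall. Cd36 lay between 3.12 and 6.35 over the arrays. Of 19 measured further genes of white fat cells, only 5 passed the minimum signal in a group, with a median coefficient of 0.38. Cd36 and G0s2 (0.58), an inhibitor of triglyceride breakdown, were the 2 of those 5 at 0.5 or above. Adig, Cidec and Pparg, the regulator of fat cell differentiation, had 0.77, 0.68 and 0.63 but were below a signal of 10 in every array. The hormone Lep, the glycerol channel Aqp7 and the lipid droplet protein Plin4 were also below 10 in every array.

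Markers of other tissues and of the cells of the testis were set beside Adipoq in the same way. The brown fat list had a median coefficient of -0.36 over 5 of 11 genes, and Ucp1, the uncoupling protein that defines brown fat, did not pass 1.58 in any array. None of 8 skeletal muscle genes and none of 4 measured erythroid genes passed the minimum signal. The median was 0.39 for 3 of 7 epididymal genes, 0.26 for 5 of 8 mesothelial genes, 0.38 for 5 of 8 macrophage genes (with Mrc1 at 0.68 and Csf1r at 0.62), 0.21 for 8 endothelial genes and 0.24 for 8 peritubular myoid genes. It was -0.25 for 12 Sertoli cell genes, -0.21 for 6 of 7 Leydig cell genes, 0.02 for 11 spermatogonial genes and -0.09 for 10 of 12 genes of meiosis and differentiating germ cells. The log2 of the summed signal of the 19 further white fat genes was highest in the MSM arrays at 5 dpp (7.18 to 7.86) and the B6 arrays at 5 dpp (6.88 to 7.70), and its highest value in the remaining groups was 7.21. The epididymal sum was 5.68 to 6.41 in MSM and 4.91 to 5.08 in B6 at 7 dpp, and 5.87 to 7.10 in MSM and 5.30 to 6.20 in B6 at 5 dpp. The part of attached tissue in any of these levels was not tested.

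The fat genes met the strain comparisons at 7 dpp through the low level of B6. The genes were picked with these contrasts already seen, so their fold changes are descriptions, given with standard errors and without p values. A gene was called differentially expressed at an adjusted p under 0.05 in limma and a change of at least 1.5-fold. Car3 differed by 4.38 ± 0.82 log2 units (SE) in MSM, 3.64 ± 1.16 in B6-ChrXMSM and 4.31 ± 0.73 in B6-ChrXTMSM relative to B6, and was called upregulated in all 3 strains. Fabp4 differed by 3.80 ± 0.67 in MSM, 2.51 ± 0.77 in B6-ChrXMSM and 2.71 ± 0.49 in B6-ChrXTMSM and was called in all 3 as well. Both passed the filter on low signal through the strain group alone, since their B6 means were 1.34 and 1.66, and a gene that enters in this way had to differ. The sizes of these differences thus rest on B6 values below the minimum signal. Adipoq and Retn passed the filter in none of the 7 dpp strain comparisons. Scd1 was called upregulated in MSM alone, by 1.06 ± 0.26, with 0.44 ± 0.20 in B6-ChrXTMSM and no test in B6-ChrXMSM, and the difference between strains was not tested. Its B6 mean, 2.90, was also below the minimum signal, so Scd1 too was tested through the strain group alone. The MSM call of Scd1 was lost with 1 fit over all groups. In F1 Car3 differed by 3.74 ± 1.33 and Fabp4 by 2.44 ± 0.95 and neither was called.

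The share of all genes called gives the background for these counts. In MSM at 7 dpp 3 of 6 tested members were called, all upregulated, where 17.3% of all tested probe sets were called, 9.35% upregulated and 7.94% downregulated. In B6-ChrXMSM 3 of 5 were called, where 6.09% of all were (1.47% upregulated and 4.62% downregulated). In B6-ChrXTMSM 3 of 6 were called, where 5.73% of all were (1.23% upregulated and 4.50% downregulated). In both strains Car3 and Fabp4 were upregulated and Dgat2 was downregulated. In F1 0 of 6 members were called by limma, where 1.72% of all were (0.366% upregulated and 1.36% downregulated), while 5 of the 6 had an unadjusted p under 0.05. The 1.72% is a share of calls, and the share of all probe sets with an unadjusted p under 0.05 is not given here. No inference is drawn from these counts, because the members were chosen with these contrasts in view. The B6-ChrXMSM calls of Car3 and Fabp4 were lost when any 1 of the 3 B6 arrays was left out, which left Dgat2 as the only call. With 1 fit over all groups Car3 was called in none of the 3 strains and Fabp4 in MSM alone, and with the mean of all probe sets of a gene both stayed below the filter in these strains and were not tested.

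At 5 dpp Adipoq and Car3 were on average lower in each strain than in B6, with wide errors. Adipoq differed by -0.31 ± 1.61 in MSM, -1.55 ± 1.54 in B6-ChrXMSM, -2.67 ± 1.58 in B6-ChrXTMSM, -2.54 ± 1.74 in XS39-tel and -3.47 ± 1.33 in F1 relative to B6. The standard errors were about as large as the differences, or larger, in MSM and B6-ChrXMSM, and none of the 5 was called. Car3 differed by -0.92 ± 1.63 in MSM, -2.09 ± 2.16 in B6-ChrXMSM, -3.93 ± 2.15 in B6-ChrXTMSM, -3.65 ± 2.31 in XS39-tel and -4.09 ± 1.85 in F1, again with no call. In MSM 1 of 8 members was called, Lpl, which was downregulated, where 28.3% of all tested probe sets were called (16.2% upregulated and 12.0% downregulated). In B6-ChrXMSM 1 of 8 was called, Dgat2, also downregulated, where 1.68% of all were called (0.183% upregulated and 1.5% downregulated). By limma 0 of 8 were called in B6-ChrXTMSM, where 0.307% of all were (0.0767% upregulated and 0.230% downregulated), with an unadjusted p under 0.05 for 2 members. The count was also 0 of 8 in XS39-tel, where 0.650% of all were called (0.105% upregulated and 0.544% downregulated) and 1 member had an unadjusted p under 0.05, and 0 of 8 in F1, where 0.540% were called (0.150% upregulated and 0.390% downregulated) and 2 members had one. The shares beside these counts are of calls, and no share of unadjusted p values over all probe sets is given here. The third B6 array at 5 dpp had a lower level of the fat genes than the other 2. Without it Scd1 was called downregulated in all but XS39-tel of the 5 strains and Adipoq in F1. That step keeps only the B6 arrays high in these genes, so the added calls are no evidence of a strain difference. Scd1 in B6-ChrXTMSM (mean 3.15) and F1 (3.23) and Adipoq in F1 (1.58) were below the minimum signal and were tested through B6 alone. All 5 comparisons share the same 3 B6 arrays.

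**Figure D3:**
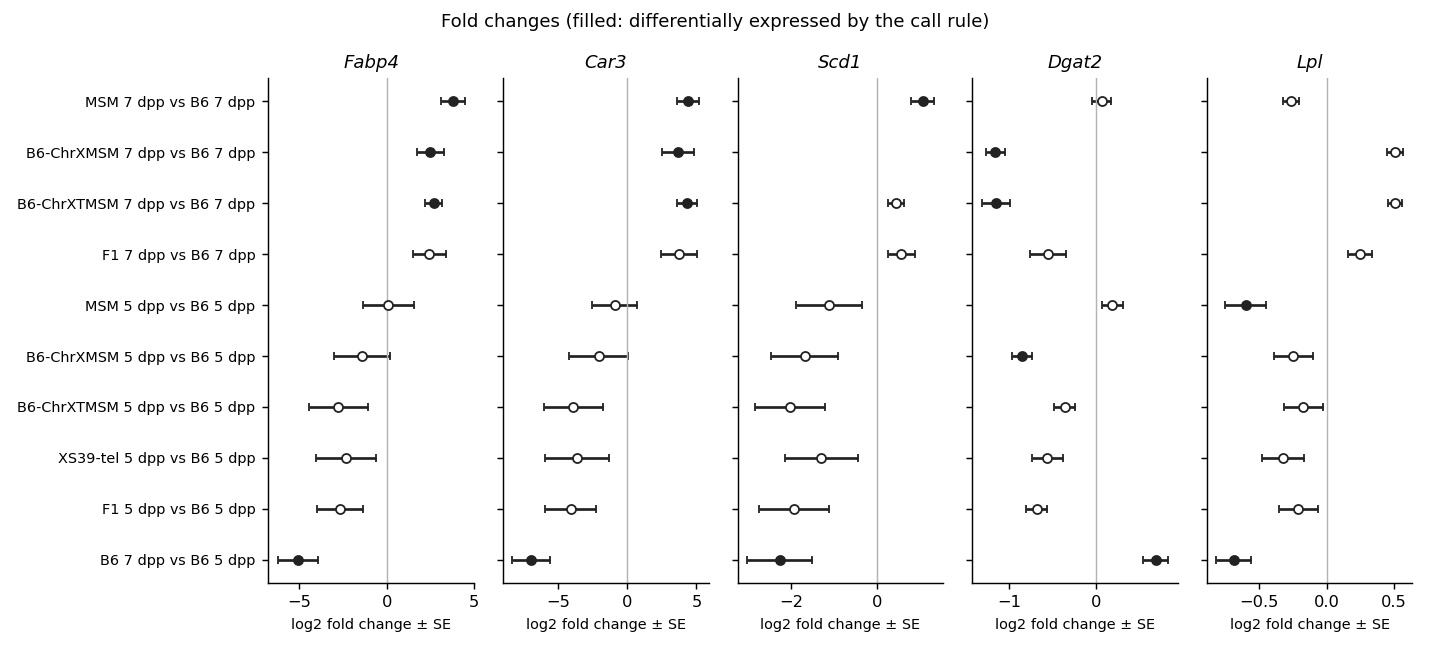
Log2 fold change ± SE (x axes) of Fabp4, Car3, Scd1, Dgat2 and Lpl in each of the 10 comparisons (rows), with filled points where the call rule was met and no point where a gene was not tested. Car3 and Fabp4 lie right of 0 in the 7 dpp strain comparisons and left of it, with wide error bars, in most at 5 dpp and in B6 at 7 against 5 dpp, and each panel has its own x range, so that the Dgat2 and Lpl error bars (SE up to 0.21) stand for far less than those of Car3 (SE up to 2.31).

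Within B6, Adipoq, Car3, Fabp4 and Scd1 were lower at 7 than at 5 dpp. Age cannot be told apart here from the amount of fat dissected with the testis. At 7 against 5 dpp Car3 changed by -6.98 ± 1.36 log2 units, Fabp4 by -5.10 ± 1.15, Adipoq by -4.03 ± 1.21 and Scd1 by -2.27 ± 0.76, and all 4 were called downregulated. Retn differed by -1.26 ± 0.47 and was not called. These genes passed the filter through the 5 dpp group, and the sizes of the changes rest on B6 values at 7 dpp that lie below the minimum signal. In the third array at 5 dpp Car3 and Fabp4 were above that minimum, and Adipoq, Retn and Scd1 were below it. In all, 6 of 8 members were called in this comparison, 5 downregulated and Dgat2 upregulated, where 8.33% of all tested probe sets were called (4.15% upregulated and 4.18% downregulated). Without the first B6 array at 5 dpp 3 were called, Car3, Fabp4 and Dgat2. With an intensity trend and robust prior 3 were called, Car3, Lpl and Dgat2. The calls of Adipoq and Scd1 were also lost without any 1 of the second B6 array at 5 dpp and the 3 B6 arrays at 7 dpp, and that of Dgat2 without the third at 5 dpp. Of the 1433 probe sets called in this comparison, 9 had a coefficient of at least 0.7 with Adipoq, all among the 719 downregulated, beside 14 of all 17194 tested. At 7 dpp such probe sets were 7 of 3056 calls in MSM (12 of 17673 tested), 4 of 1041 in B6-ChrXMSM (9 of 17095) and 3 of 980 in B6-ChrXTMSM (10 of 17102), all upregulated, and 0 of 287 in F1 (9 of 16668). In MSM at 5 dpp they were 4 of 5041 calls (0.079%) and 15 of 17835 tested (0.084%). Among the calls in B6-ChrXMSM, B6-ChrXTMSM, XS39-tel and F1 at 5 dpp there were none, of 14 tested in each. The members are among these probe sets. In MSM and B6-ChrXMSM the means of Adipoq, Car3, Fabp4 and Scd1 were also lower at 7 than at 5 dpp. In B6-ChrXTMSM and F1 those means were higher at 7 dpp. The ranges at both ages overlapped in each of these strains, and these changes were not tested.

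Cd36 showed how far a neighbour of Adipoq went with the members. It was called upregulated in MSM (1.64 ± 0.15) and B6-ChrXMSM (0.66 ± 0.16) at 7 dpp, was called downregulated in B6 at 7 against 5 dpp (-1.73 ± 0.49), and was not called in B6-ChrXTMSM (0.45 ± 0.15) or F1 (0.49 ± 0.19) at 7 dpp. Of the 5 tested further genes of white fat cells in all, 1 was upregulated and 2 were downregulated in MSM at 7 dpp. The downregulated ones were Rbp4 (-1.19 ± 0.13), a retinol carrier, and Cebpa (-0.77 ± 0.11), a transcription factor. Rbp4 was also called downregulated in B6-ChrXMSM (-1.78 ± 0.12) and B6-ChrXTMSM (-1.78 ± 0.12) at 7 dpp, opposite in direction to Car3 and Fabp4, and upregulated in B6 at 7 against 5 dpp (1.17 ± 0.15). Its levels had r = 0.78 with Dgat2.

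Dgat2 differed more between strains and ages than between arrays of 1 group, with the widest spread in F1 at 7 dpp. At 7 dpp it measured 5.15, 5.15 and 5.22 in MSM, 4.04, 3.94 and 3.88 in B6-ChrXMSM, 3.82, 4.31 and 3.74 in B6-ChrXTMSM, and 4.85, 5.30 and 5.18 in B6. The 8 F1 arrays held a lowest value of 4.10, a median of 4.402 and a highest of 5.19. The B6-ChrXMSM and B6-ChrXTMSM arrays all lay below the B6 arrays, the MSM arrays lay among them, and the F1 arrays spanned the gap. At 5 dpp Dgat2 measured 4.497, 4.71 and 4.63 in MSM, 3.68, 3.50 and 3.56 in B6-ChrXMSM, 4.15, 4.10 and 3.95 in B6-ChrXTMSM, 3.999, 3.53 and 4.08 in XS39-tel, 3.73, 3.70 and 3.82 in F1, and 4.69, 4.38 and 4.22 in B6. All strains other than MSM lay below the 3 B6 arrays here. In order of the group means, MSM (5.17 ± 0.04, SD) and B6 (5.11 ± 0.23) at 7 dpp stood highest and were closer to each other than the spread of B6. MSM at 5 dpp (4.61 ± 0.11), F1 at 7 dpp (4.56 ± 0.39) and B6 at 5 dpp (4.43 ± 0.24) followed and overlapped. B6-ChrXTMSM at 5 dpp (4.07 ± 0.10), B6-ChrXTMSM at 7 dpp (3.96 ± 0.31), B6-ChrXMSM at 7 dpp (3.95 ± 0.08), XS39-tel (3.87 ± 0.30), F1 at 5 dpp (3.75 ± 0.06) and B6-ChrXMSM at 5 dpp (3.58 ± 0.09) came last, and the ranges of neighbours among these 6 groups overlapped except in the final pair. Between these sets, B6 at 7 dpp did not overlap MSM at 5 dpp, nor B6 at 5 dpp B6-ChrXTMSM at 5 dpp.

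Relative to B6, Dgat2 was called downregulated in B6-ChrXMSM (-1.16 ± 0.11) and B6-ChrXTMSM (-1.15 ± 0.16) at 7 dpp and in B6-ChrXMSM at 5 dpp (-0.85 ± 0.12). It differed by -0.37 ± 0.12 in B6-ChrXTMSM, -0.56 ± 0.18 in XS39-tel and -0.68 ± 0.12 in F1 at 5 dpp and by -0.55 ± 0.21 in F1 at 7 dpp, without a call. In MSM the difference was 0.06 ± 0.11 at 7 dpp and 0.18 ± 0.12 at 5 dpp. In B6 it was called upregulated at 7 against 5 dpp by 0.68 ± 0.15. With the Adipoq level of each array as a covariate, an alternative chosen after the data had been seen, the 4 calls were kept. The differences were -1.19, -1.19, -0.80 and 0.94. Adipoq passed a signal of 10 in only 13 of the 38 arrays and in no B6 array at 7 dpp. Its B6 mean was 1.02 at 7 dpp and 5.05 at 5 dpp. In comparisons that use B6 at 7 dpp, this adjustment therefore cannot separate the fat level from strain or age. The second probe set of Dgat2 followed the first with r = 0.91 over the arrays, but passed a signal of 10 in only 29 of them. It was below 10 in every array of B6-ChrXMSM at both ages and of F1 at 5 dpp. The first probe set was weak as well, with signals of 11.3 to 39.4, so the lowest Dgat2 groups lay near the minimum signal.

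Lpl had a strong signal in all 38 arrays. By its first probe set it ran, relative to B6, opposite to Dgat2 in the substitution strains and F1 at 7 dpp, and in the same direction at 5 dpp. At 7 dpp it measured 8.42, 8.48 and 8.37 in MSM, 9.26, 9.20 and 9.14 in B6-ChrXMSM, 9.19, 9.18 and 9.22 in B6-ChrXTMSM, and 8.66, 8.74 and 8.66 in B6. The F1 arrays had a lowest value of 8.68, a median of 8.92 and a highest of 9.15. All B6-ChrXMSM and B6-ChrXTMSM arrays were above those of B6, and all MSM arrays below. At 5 dpp it measured 8.66, 8.99 and 8.70 in MSM, 9.09, 9.04 and 9.27 in B6-ChrXMSM, 9.17, 9.08 and 9.36 in B6-ChrXTMSM, 9.19, 9.07 and 8.90 in XS39-tel, 9.15, 9.11 and 9.25 in F1, and 9.68, 9.36 and 9.10 in B6. The MSM arrays again lay below all B6 arrays, and the first B6 array, the one richest in Car3, had the most Lpl of the series. Lpl differed from B6 by 0.51 ± 0.06 in B6-ChrXMSM, 0.51 ± 0.05 in B6-ChrXTMSM, 0.25 ± 0.09 in F1 and -0.27 ± 0.06 in MSM at 7 dpp, all below the 1.5-fold limit. At 5 dpp it differed by -0.25 ± 0.14 in B6-ChrXMSM, -0.17 ± 0.15 in B6-ChrXTMSM, -0.32 ± 0.16 in XS39-tel and -0.21 ± 0.14 in F1, without a call. Dgat2 was also lower than in B6 in these groups. Lpl was called downregulated in MSM at 5 dpp (-0.60 ± 0.15) and in B6 at 7 against 5 dpp (-0.69 ± 0.13). Both calls were lost without the first B6 array at 5 dpp (-0.45 and -0.54). With the Adipoq level as a covariate the change with age in B6 was -0.32 ± 0.12, with the limit given for Dgat2. The difference of MSM at 5 dpp was then -0.58 ± 0.09, and neither met the call rule. The second probe set of Lpl followed the first with r = 0.82 and passed a signal of 10 in all 38 arrays. It too put all B6-ChrXMSM and B6-ChrXTMSM arrays above those of B6 at 7 dpp. In it the MSM arrays overlapped those of B6. They held 6.27 to 6.66 at 7 dpp, against 6.49 to 6.56, and 6.58 to 6.93 at 5 dpp, against 6.88 to 7.61. F1 at 7 dpp had a mean of 6.53 there, beside 6.51 in B6. Over the 38 levels Lpl and Dgat2 had r = -0.66, while around the group means r was -0.07, with -0.412 at 7 dpp and 0.385 at 5 dpp.

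**Figure D4:**
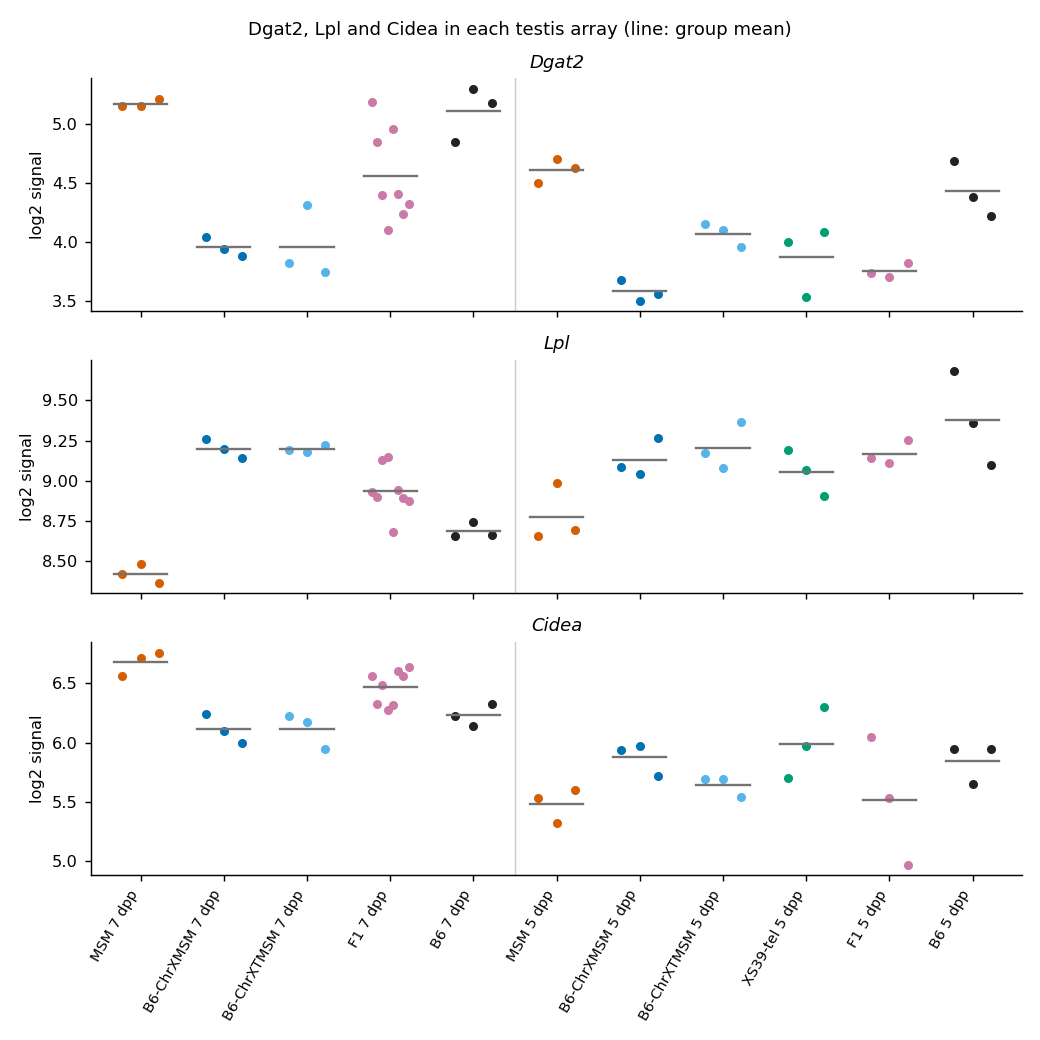
Log2 signal of Dgat2, Lpl and Cidea (y axes, each with its own range that does not start at 0) in each of the 38 arrays (points), by strain and age (x axis), with a bar at each group mean. Dgat2 is low and Lpl high in B6-ChrXMSM and B6-ChrXTMSM at 7 dpp, and most groups form tight clusters, unlike the fat genes.

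The genes nearest to Dgat2 over the 38 levels were Crybg2 (r = 0.96), Sub1 (0.96), Prkag2 (0.95), Galnt12 (0.95), Ndrg4 (0.94), Ppp2r1b (0.94), Ccdc88c (0.94) and Mknk2 (0.94). Such likeness was common, since 601 of 10828 other genes reached 0.8. Among the germ cell lists the median coefficient with Dgat2 was 0.89 for 10 genes of meiosis and differentiating germ cells and 0.87 for 11 spermatogonial genes. Stra8, which is needed for entry into meiosis, had 0.90, Sohlh1, a transcription factor of differentiating spermatogonia, 0.91, Tex12 of the synaptonemal complex 0.91 and Tdrd9 of the piRNA pathway 0.94. The 12 Sertoli cell genes were divided, with a median of -0.37, 4 genes at -0.5 or below and 2 at 0.5 or above. Hsd17b1, a steroid enzyme gene, had -0.87 and Inhbb, the inhibin beta B subunit, -0.84, while the tight junction gene Cldn11 had 0.62 and the transcription factor gene Gata1 0.61. With Lpl the medians were -0.72 for the meiosis list, -0.65 for the spermatogonial list and 0.36 for the Sertoli cell list. The receptor gene Kit had -0.80 with Lpl, Hsd17b1 0.70 and Cldn11 -0.59. The genes nearest to Lpl were Dsg2 (0.88), Vdac1 (0.86), Ldha (0.86), Rgcc (0.85), Ugdh (0.85), Cyp1b1 (0.85), Lamb1 (0.85) and Ptges (0.85).

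The genes of meiosis were called in the 4 comparisons in which Dgat2 was called, and some of them in others too. Relative to B6 at 7 dpp, 9 of 10 tested genes of the meiosis list were called downregulated in B6-ChrXMSM (median log2 fold change -1.70) and 9 of 10 in B6-ChrXTMSM (-1.62), and the median in F1 was -0.45. At 5 dpp 5 of 8 were called downregulated in B6-ChrXMSM (-1.23). In B6 9 of 10 were called upregulated at 7 against 5 dpp (median 1.54, against 0.02 over all tested probe sets). Dgat2 was not called in MSM, where 4 of 8 genes of the list were upregulated at 5 dpp and 1 was upregulated and 1 downregulated at 7 dpp, nor in XS39-tel, where 1 was downregulated. Stra8 changed by -2.24 ± 0.14 in B6-ChrXMSM and -2.25 ± 0.24 in B6-ChrXTMSM at 7 dpp, and differed by -0.78 ± 0.27 in F1 without a call. These values stand beside those of Dgat2, and the part of the germ cell share in them was not tested. The arrays of 1 group alone, the 8 F1 arrays at 7 dpp, gave r = 0.81 (rho 0.86) between Dgat2 and the mean of the meiosis list and r = -0.91 (rho -0.71) between Lpl and that mean. Without the 2 arrays farthest from the median of the list r was 0.71 for Dgat2 and -0.74 for Lpl. Adipoq had r = -0.13 with the same mean.

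**Figure D5:**
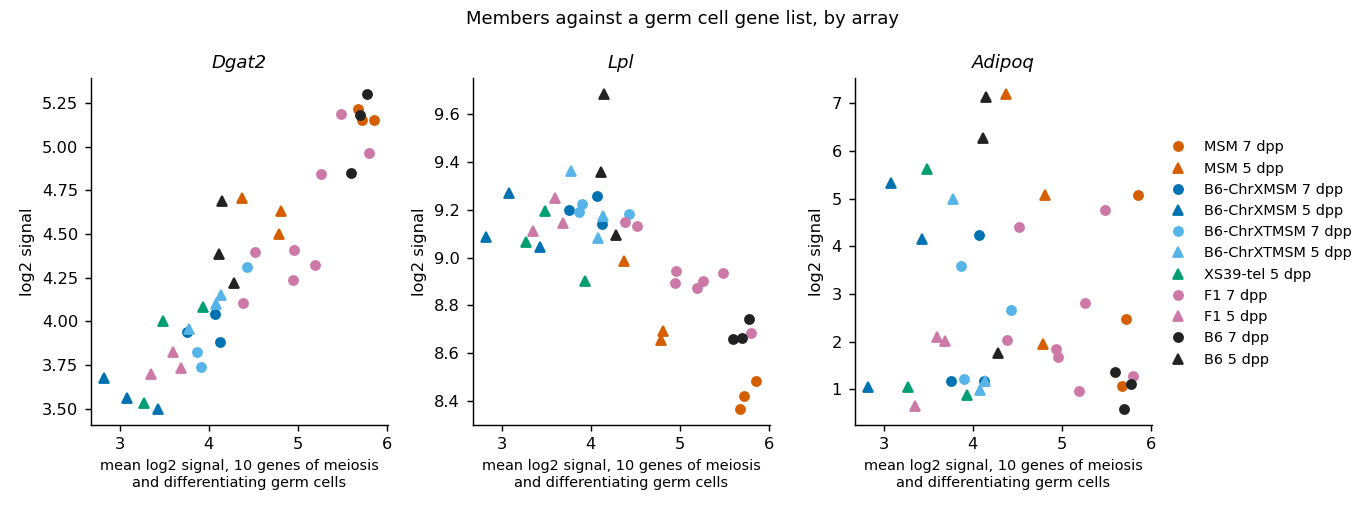
Mean log2 signal of 10 genes of meiosis and differentiating germ cells (x axis) against the log2 signal of members (y axes) in the 38 arrays, coloured by strain and shaped by age. Dgat2 climbs and Lpl falls along the germ cell mean, and Adipoq spreads over several log2 units at low and at high germ cell means (r with Dgat2 within F1 at 7 dpp, 0.81, with Lpl -0.91, with Adipoq -0.13).

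Calls of other genes of triglyceride synthesis are given beside the share over all tested probe sets. Of 13 tested genes for the synthesis of fatty acids and triglyceride, 1 was upregulated and 1 downregulated in MSM at 7 dpp, where 17.3% of all were called. In MSM at 5 dpp 1 was upregulated (28.3% of all called), and in B6 at 7 against 5 dpp 1 was downregulated (8.33%). These were the only calls of the list in the 10 comparisons. In the others 0.307% to 6.09% of all were called, and no inference is drawn from these counts. Dgat1, which catalyses the same step as Dgat2, ranged over 1.72-fold against 3.49-fold for Dgat2, with r = 0.65 between their levels. The 13 genes were divided, with a median coefficient of -0.21 with Dgat2 over the levels. Of them 3 were at 0.5 or above, and 1, Elovl6 (-0.81), was at -0.5 or below. Fasn, the fatty acid synthase, had r = 0.47 with Dgat2 and -0.07 with Adipoq. Among the partners of Lpl, Gpihbp1 (0.68) and the lipoprotein receptor Vldlr (0.54) followed Adipoq around the group means, and the inhibitor Angptl4 (-0.16) did not. The genes nearest to Scd1 over the levels were Cd36 (0.77), Agpat2 (0.69), Gpihbp1 (0.69), Cav1 (0.68), Adgrf5 (0.65), Cavin2 (0.64), Krt7 (0.63) and G0s2 (0.62), and with the germ cell lists Scd1 had medians of -0.05 and 0.05.

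Cidea, though a gene of brown fat, was above a signal of 10 in all 38 arrays, covered a 3.46-fold range and stayed apart from the fat genes. At 7 dpp it measured 6.56, 6.71 and 6.76 in MSM, 6.25, 6.10 and 5.996 in B6-ChrXMSM, 6.22, 6.18 and 5.94 in B6-ChrXTMSM, and 6.22, 6.14 and 6.33 in B6, with a lowest value of 6.28, a median of 6.53 and a highest of 6.64 in F1. At 5 dpp it measured 5.53, 5.32 and 5.595 in MSM, 5.94, 5.97 and 5.72 in B6-ChrXMSM, 5.69, 5.69 and 5.54 in B6-ChrXTMSM, 5.70, 5.97 and 6.30 in XS39-tel, 6.05, 5.53 and 4.97 in F1, and 5.94, 5.65 and 5.95 in B6. MSM was above B6 in every array at 7 dpp and below it in every array at 5 dpp. By limma Cidea was called in 0 of the 10 comparisons and had an unadjusted p under 0.05 in 4. In MSM at both ages and in B6 at 7 against 5 dpp the adjusted p was under 0.05 too, and only the 1.5-fold limit was not met. It differed from B6 by 0.45 ± 0.08 in MSM and 0.24 ± 0.09 in F1 at 7 dpp, and by 0.38 ± 0.09 in B6 at 7 against 5 dpp. Its nearest genes over the levels, a set listed after its values had been seen, began with Prkci (0.87), Tspan17 (0.86), Cgn (0.84), Slc39a6 (0.83) and Nr0b1 (0.82). Prkci and Cgn are genes of cell polarity and tight junctions. Over the levels, which mix strains and ages, the median coefficient of Cidea was 0.56 with the meiosis list and 0.46 with the spermatogonial list. Within the 8 F1 arrays at 7 dpp, Cidea had r = 0.03 with the mean of the meiosis list and 0.15 with that of the spermatogonial list.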

How the data were processed

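Testes of 5-day-old and 7-day-old males were immersed in RNAlater, and 100 ng of total RNA per array was labelled with the 3′IVT Express kit and hybridised to Affymetrix mouse expression arrays. The values are log2 signals deposited by the authors, who normalised them by RMA in GeneSpring GX (version not given in the sources used here). RMA subtracts background, sets all arrays to 1 distribution and summarises the probes of a set, so low signals are compressed and no detection call remains. Of 45101 probe sets, 34958 were annotated to 1 gene, 932 to several and 9211 to none. Array precision is limited by the number of arrays.

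Genes were tested with limma 3.58.1 (R 4.3.3; lmFit and eBayes) between 2 groups at a time, among probe sets with a group mean above a signal of 10, without polymorphic probe sets of chromosome X (and 1, for F1), with Benjamini-Hochberg adjustment. A call needed an adjusted p under 0.05 and 1.5-fold. The test was checked on simulated data. Likeness is Pearson's r on values centred by group or on levels. The members and gene lists were chosen with earlier results of these data known. The text names all measured members, up to 4 genes of each list, those closest to Adipoq or called most often, and the 8 genes most like Adipoq, Dgat2, Lpl and Scd1; other named list genes, among them the germ cell examples, and the genes like Cidea were chosen after their values were seen. Alternatives changed the filter, the fit, the prior, the choice of probe set and the replicate block, and left out single arrays.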

Additional observations from a re-analysis of the deposited data

Results flagged for a closer look

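Cidea differed between MSM and B6 in opposite directions at the 2 ages. Its mean in MSM minus that in B6 was 0.449 log2 units at 7 dpp, where every MSM array lay above every B6 array, and -0.364 at 5 dpp, where every MSM array lay below every B6 array. The difference between the ages was not tested, and it was found among 32 pairs of strain and member. In the 8 F1 arrays at 7 dpp no member had an array far from the others.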

How the results depend on the processing

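The count of members like Adipoq moved little: 5 members had a coefficient of at least 0.5, against 4 to 5 under the alternatives and 5 when any 1 array was left out. Of the single coefficients, that of Lpl was 0.336 on levels, 0.453 at 7 dpp and 0.826 at 5 dpp, that of Dgat2 0.089 on levels, and that of Cidea 0.251 at 7 dpp and -0.395 at 5 dpp. The number of members called depended on the fit. With 1 fit over all groups it was 1 at 7 dpp in each of MSM, B6-ChrXMSM and B6-ChrXTMSM, in place of 3. With the mean of all probe sets of a member it was 0 in MSM, 1 in B6-ChrXMSM and 1 in B6-ChrXTMSM at 7 dpp, and 0 in MSM and 1 in F1 at 5 dpp, and at 7 dpp Car3, Fabp4 and Scd1 then fell below the filter. With an intensity trend and robust prior it was 1 in B6-ChrXMSM at 7 dpp and 3 in B6 at 7 against 5 dpp, and with no filter on low values 1 in B6-ChrXMSM at 7 dpp. The causes of the other changes were not tested. When single arrays were left out, the number was 3 to 4 in MSM, 1 to 3 in B6-ChrXMSM, 3 to 3 in B6-ChrXTMSM and 0 to 1 in F1 at 7 dpp, 0 to 2 in MSM, 1 to 2 in B6-ChrXMSM, 0 to 1 in B6-ChrXTMSM, 0 to 0 in XS39-tel and 0 to 2 in F1 at 5 dpp, and 3 to 6 in B6 at 7 against 5 dpp. The MSM call at 5 dpp was lost without the first B6 array or either of MSM replicates 1 and 3, and the F1 call at 7 dpp appeared without the first array (Dgat2) or the fifth (Car3).

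The mean level of Adipoq, Car3, Fabp4, Cidea, Retn and Scd1 was 2.02 above B6 in MSM and 1.53 above it in B6-ChrXTMSM at 7 dpp, and 1.11 and 0.786 with the mean of all probe sets. When single arrays were left out, that difference was 1.43 to 2.49 in MSM, 0.64 to 1.79 in B6-ChrXMSM, 1.12 to 1.93 in B6-ChrXTMSM and 1.25 to 1.70 in F1 at 7 dpp. At 5 dpp it was -1.58 to 0.26 in MSM, -2.35 to -0.35 in B6-ChrXMSM, -3.19 to -1.35 in B6-ChrXTMSM, -2.83 to -0.996 in XS39-tel and -3.37 to -1.53 in F1, and in B6 at 7 against 5 dpp -4.32 to -2.48. With Adipoq as a covariate, chosen after the data had been seen, the difference of Lpl from B6 at 5 dpp turned to 0.042 in B6-ChrXTMSM and 0.104 in F1, and F1 at 7 dpp gained a Dgat2 call (-0.707). Replicate numbers are only shared between groups, since no comparison had every same-numbered pair correlated above 0.1. With the replicate block 2 members were called in F1 at 7 dpp, in place of 0. Because B6 has only replicates 1 to 3, the block leaves F1 replicates 4 to 8 out of this contrast. The remaining F1 arrays had the most Adipoq of that group, with 4.77, 2.81 and 4.40. Over all genes the calls with the block were 42 in place of 287 in F1 at 7 dpp. At 5 dpp they were 22 in place of 52 in B6-ChrXTMSM, 0 in place of 111 in XS39-tel and 5 in place of 90 in F1. Over all genes the stricter minimum signal gave 181 calls in F1 at 7 dpp and 34 in B6-ChrXTMSM at 5 dpp, the fit over all groups 508 in F1 at 7 dpp and 348 in XS39-tel, the intensity trend 80 in B6-ChrXTMSM at 5 dpp, and no filter 67 in XS39-tel. With Adipoq as a covariate they were 935 in F1 at 7 dpp and, at 5 dpp, 17 in B6-ChrXTMSM, 5 in XS39-tel and 3 in F1. Low signals limit Adipoq and Retn, which most arrays hold below a signal of 10.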
